A study of Mus musculus with 12 samples.

Results

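The accessible chromatin around 4 genes of simple epithelium, the keratins Krt7, Krt8, Krt18 and Krt19, was followed through normal skin epithelium and squamous carcinoma of the mouse. A peak, a region of open chromatin in the deposited peak list, was taken as a member when it lay in one of these genes or within 50 kb of it and no other protein-coding gene was nearer. Of 177240 peaks, 31 met this rule: 13 at Krt7, 3 at Krt8, 8 at Krt18 and 7 at Krt19. All 31 passed the filter on low counts.

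Chromatin was profiled in 6 samples by ATAC-seq, which uses the Tn5 transposase to cut and tag open DNA. Normal hair follicle (HF, 1 sample) and interfollicular epidermis (IFE, 1 sample) came from wild-type mice. The tumours carried, among other alleles, p53fl/fl and Rosa-YFP+/+ with an inducible Cre, either K14CreER, driven by the keratin 14 promoter of basal keratinocytes, or Lgr5CreER, driven by the promoter of a hair follicle stem cell receptor. Epcam-positive cells were taken from the K14CreER tumours (K14 Epcam+, 1 sample) and the Lgr5CreER tumours (Lgr5 Epcam+, samples 1 and 2), and Epcam-negative cells from the Lgr5CreER tumours (Lgr5 Epcam-, 1 sample). All mice were female and of mixed strain, and no age, tumour stage or pooling of animals is stated in the sources used here. The cell sort used antibodies against CD45, CD31, CD140a and Epcam, and a YFP gate is not mentioned. Nothing in the labels says whether the Lgr5 Epcam+ samples came from separate mice, so a p-value here speaks of the spread among these libraries, perhaps a technical one. In such bulk samples, fewer cells with an open site and a less open site in every cell cannot be told apart.

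Keratins form the intermediate filaments of epithelial cells as obligate pairs of a type I and a type II chain. Krt8 and Krt7 are type II, Krt18 and Krt19 are type I, and Krt8 with Krt18 is the pair of simple, single-layered epithelia such as liver, gut and gland ducts. Stratified epidermis instead builds its filaments from Krt5 and Krt14 in the basal layer, and within skin the simple epithelial keratins are known from Merkel cells, sweat glands and, for Krt19, the follicle's stem cell region. Keratins of the simple type are often found in squamous carcinomas, and Krt18 is the type I gene that lies in the type II cluster, next to Krt8.

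On the mm10 assembly Krt7 spans chr15:101412403-101427806, Krt8 spans chr15:101996711-102004342 on the reverse strand and Krt18 spans chr15:102028216-102032026 on the forward strand, so that Krt8 and Krt18 point away from each other. Krt19 spans chr11:100140810-100145926 within the type I keratin cluster. Below, a peak is called by the distance of its centre from its gene's start site, negative upstream. For Krt19, whose start site and promoter were not in the sequence table used, distance is counted from the higher-coordinate end of the gene, positive into it.

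The 250 bases before each start site are printed to show what lies in and out of the peaks, from RefSeq on GRCm38.p6, the assembly called mm10. In them CACCTG, the E-box that Snail and Zeb repressors are known to bind, and GGGCGG, the GC box of Sp factors, are in capitals, as found on either strand.

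Krt18: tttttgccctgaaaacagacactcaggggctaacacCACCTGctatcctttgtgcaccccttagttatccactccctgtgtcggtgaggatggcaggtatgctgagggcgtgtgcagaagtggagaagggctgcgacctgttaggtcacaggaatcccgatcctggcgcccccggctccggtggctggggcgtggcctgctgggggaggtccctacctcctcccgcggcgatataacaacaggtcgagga

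Krt8: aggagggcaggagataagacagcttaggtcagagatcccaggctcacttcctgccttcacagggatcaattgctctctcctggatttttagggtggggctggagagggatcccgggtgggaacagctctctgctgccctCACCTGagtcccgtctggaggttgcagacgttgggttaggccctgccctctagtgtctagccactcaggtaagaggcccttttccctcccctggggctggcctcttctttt

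Krt7: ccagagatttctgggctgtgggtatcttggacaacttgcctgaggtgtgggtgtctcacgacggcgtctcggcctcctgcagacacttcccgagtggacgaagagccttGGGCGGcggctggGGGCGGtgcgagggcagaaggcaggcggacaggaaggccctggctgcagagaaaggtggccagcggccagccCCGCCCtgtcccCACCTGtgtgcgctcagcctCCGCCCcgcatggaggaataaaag

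The Krt18 window, chr15:102027966-102028215, lies wholly inside the peak over the Krt18 start site. The Krt8 window, chr15:102004343-102004592, and the Krt7 window, chr15:101412153-101412402, lie in no peak. The nearest Krt8 peak begins 456 bp upstream of its start and the nearest Krt7 peak ends 619 bp upstream of its own. Both strands were searched for 8 motifs. CACCTG occurs once in each of the 3 windows, beginning 214 bases before the start in Krt18, 111 in Krt8 and 44 in Krt7, and 17.2% of 32817 RefSeq promoter windows of the same length hold it. Only Krt7 holds GGGCGG, with 4 matches, and 32.7% of windows do. No match was found in the 3 windows for the AP-1 motif TGANTCA (in 6.8% of all windows), the box called CCAAT (33.8%), the TATA box as TATAAA (12.4%), the Grhl motif AACNGGTT (1.8%), the Runx motif TGTGGT (14%) or the Tead motif GGAATG (12.6%). A match describes letters only, and the searched motifs do not overlap each other in these windows.

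Summed counts in peaks ranged from 32086654 in HF to 62941406 in Lgr5 Epcam+ sample 1. Of the paired-end counts, the share that fell in peaks was 27.5% for HF and 34.0% for IFE. Every tumour sample had a larger share, from 37.9% (Lgr5 Epcam-) to 51.1% (Lgr5 Epcam+ sample 1). Normal samples were also below all tumour samples in the single-end runs. Signal over background thus differed along with normal against tumour, and its part in the results was not tested. The single-end run of K14 Epcam+ was low over the last part of chromosome 15, where its median log2 ratio to the paired-end run was -0.72 over 1612 peaks beyond 90 Mb, against 0.24 on chromosomes 1 to 14 and 0.11 to 0.28 for the other samples in that part. Values for Krt7, Krt8 and Krt18 therefore come from the paired-end runs alone, and those for Krt19 from both runs summed. Epcam followed the sort labels: its 13 peaks summed to 218.3 to 220.6 CPM (counts scaled to a common library size) in the Epcam+ tumours and 46.4 CPM in Lgr5 Epcam-. Trp53 has 1 peak, at 18.7 to 27.5 CPM in all 6 samples, and it is not stated whether it lies in the floxed part, so it checks nothing. Keratinocyte genes (Krt14, Krt5, Trp63, Itga6, Itgb4 and Lamb3) summed to 1240 CPM or more in the normal and Epcam+ samples and to 543.8 CPM in Lgr5 Epcam-.

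The comparison of normal with tumour samples asks how accessibility at simple epithelial keratin genes differs in carcinoma, and the members did not share a direction. Of the 8 Krt18 peaks, 3 rose in Epcam+ tumours. Krt8, its partner, had 1 of 3 peaks higher, while its strongest peak did not pass. Krt7 had 1 of 13 peaks lower, and Krt19 had 1 peak higher and 1 lower of 7. These calls are from edgeR's quasi-likelihood test of the 3 Epcam+ tumour samples against the 2 normal samples, fitted over all peaks, with a Benjamini-Hochberg adjusted p under 0.05. Over all peaks 26.3% passed in the paired-end runs and 30.2% in the summed runs, so 7 of 31 members is no more than the background share. As a description, all 11 Krt8 and Krt18 peaks had a log2 change above 0, with a median of 1.57, beside a median of 0.01 over all peaks and of 0.08 over the 798 peaks in the surrounding 5 Mb of chromosome 15. The split of 5 higher and 2 lower members moved with the scaling, to 3 and 3 under total-count scaling and 3 and 4 under loess scaling. It was 8 and 2 with DESeq2 as the tool, and 4 and 6 with the single-end runs. The test takes the spread between samples of one class, of different origin, as error.

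**Figure D1:**
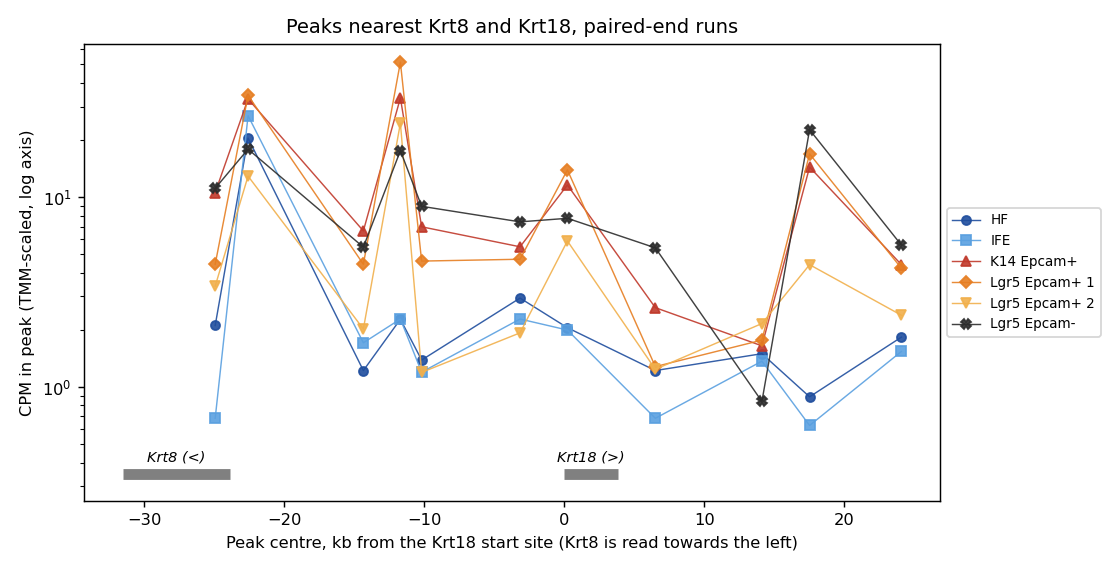
Accessibility of the 11 peaks nearest Krt8 and Krt18. The horizontal axis is the distance of each peak centre from the Krt18 start site in kb, the vertical axis is CPM on a log scale, each line joins the values of 1 sample, and grey bars are the gene spans with their direction of reading. At the peak 11.7 kb before Krt18 both normal samples sit near 2.3 CPM and the 4 tumour samples between 17.6 and 51.4 CPM, while at the strongest Krt8 peak the normal samples lie among the tumour samples.

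Krt18 encodes the type I partner of keratin 8. Its peak of highest mean CPM over the 6 samples was chr15:102015942-102017081, centred 11.7 kb before the start, in the stretch between Krt8 and Krt18. It lies 11135 bp from the Krt18 span and only slightly farther from the Krt8 span, so its assignment to Krt18 is a narrow one. It is counted for Krt18 in the gene sums below, and a fit with it given to Krt8 was not run. The peak had 2.27 CPM in HF, 2.28 in IFE, 33.3 in K14 Epcam+, 51.4 with 24.5 in the Lgr5 Epcam+ pair (sample 1 first, here and in what follows), and 17.6 in Lgr5 Epcam-. Both normal samples were low and nearly equal, and the lowest tumour sample was far above them. The rise in Epcam+ tumours was 4.0 ± 0.43 on the log2 scale (SE, n = 3 and 2, edgeR adjusted p = 0.000264). It passed in each of 13 alternatives, where the value ran from 3.10 in the single-end runs to 4.21 without Lgr5 Epcam+ sample 2.

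The peak over the Krt18 start site, chr15:102027871-102029010, covers the printed promoter window. It had 2.05 CPM in HF, 2.0 in IFE, 11.6 in K14 Epcam+, 13.9 with 5.88 in the Lgr5 Epcam+ pair, and 7.74 in Lgr5 Epcam-. Normal and tumour samples did not overlap, and the second Lgr5 Epcam+ sample was the lowest of the tumours. The log2 rise was 2.37 ± 0.52 (SE, n = 3 and 2, edgeR adjusted p = 0.00672), with alternatives from 1.63 to 2.65 that all passed.

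The third, chr15:102045208-102046268, lies 17.5 kb past the start, beyond the far end of the gene. It was low in normal epithelium, with 0.888 CPM (16 counts) in HF and 0.627 CPM (11 counts) in IFE. In tumours it reached 14.4 CPM in K14 Epcam+, 16.9 with 4.41 in the Lgr5 Epcam+ pair, and 22.7 in Lgr5 Epcam-, which held the highest value of all. The log2 rise in Epcam+ tumours was 3.96 ± 0.65 (SE, n = 3 and 2, edgeR adjusted p = 0.00165), from 2.45 to 4.36 over the alternatives, past the threshold in each.

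The other 5 Krt18 peaks did not pass, with log2 changes of 0.37 to 1.72. Among them the peak 10.2 kb upstream, singled out after its values were seen, had 1.39 CPM in HF, 1.20 in IFE, 6.98 in K14 Epcam+, 4.61 with 1.19 in the Lgr5 Epcam+ pair, and 8.95 in Lgr5 Epcam-. One Lgr5 Epcam+ sample was thus at the normal level there and the other was not, and this spread stood beside an adjusted p of 0.0752 in edgeR's test. Summed over its 8 peaks (9.83 kb), Krt18 had 14.1 CPM in HF, 11.97 in IFE, 80.4 in K14 Epcam+, 98.8 with 43.7 in the Lgr5 Epcam+ pair, and 76.2 in Lgr5 Epcam-. In the fit of counts summed per gene, Krt18 rose by 2.45 ± 0.35 on the log2 scale in Epcam+ tumours (SE, n = 3 and 2, edgeR adjusted p = 0.00198), where 23.3% of 18115 genes passed.

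Krt8 encodes the type II partner, and most of its signal lay in the peak chr15:102004798-102006466, 1.3 kb upstream of the start. The peak had 20.5 CPM in HF, 26.9 in IFE, 32.9 in K14 Epcam+, 34.4 with 12.9 in the Lgr5 Epcam+ pair, and 17.9 in Lgr5 Epcam-. It was open in all 6 samples, held 51.9% to 91.8% of the gene's counts, and its normal values lay within the tumour range. The log2 difference was 0.18 ± 0.40 (SE, n = 3 and 2, edgeR adjusted p = 0.777). The other site, chr15:102002780-102003788, lies 1.1 kb inside the gene and had 2.11 CPM in HF, 0.684 in IFE, 10.6 in K14 Epcam+, 4.43 with 3.40 in the Lgr5 Epcam+ pair, and 11.1 in Lgr5 Epcam-. Every tumour sample was above both normal samples. It rose by 2.13 ± 0.66 on the log2 scale (SE, n = 3 and 2, edgeR adjusted p = 0.0317). That call was lost under total-count scaling (0.0544), loess scaling (0.103), and without IFE (0.17), K14 Epcam+ (0.122) or Lgr5 Epcam+ sample 1 (0.0672), each an edgeR adjusted p. The remaining Krt8 peak, 9.5 kb upstream, had a log2 difference of 1.57 ± 0.57 (SE, edgeR adjusted p = 0.0599) and did not pass. The 2 nearest peaks on the low-coordinate side, assigned to Krt78, also had every tumour sample above both normal samples. They had 0.912 to 1.05 and 3.44 to 4.1 CPM in normal, 1.21 to 1.63 and 6.20 to 13.7 CPM in tumour samples. Beyond Krt18, the nearest Eif4b peak overlapped (5.83 and 10.4 CPM in HF and IFE, 7.44 to 10.9 in tumours). The next had 0.832 and 0.855 CPM in normal samples, 1.15 to 2.29 in Epcam+ tumours and 0.653 in Lgr5 Epcam-.

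Across the 6 samples the log2 CPM of the 11 Krt8 and Krt18 peaks had a median pairwise Pearson r of 0.77 (55 pairs). The range was -0.62 to 0.98, with 8 pairs below 0, and the 4 peaks that passed had a median of 0.91 (0.75 to 0.98). For Krt7 the median was 0.14 over 78 pairs and for Krt19 0.45 over 21 pairs. These are descriptions over 6 points that share libraries and depth, and the 4 Krt8 and Krt18 peaks were taken by the same values.

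**Figure D2:**
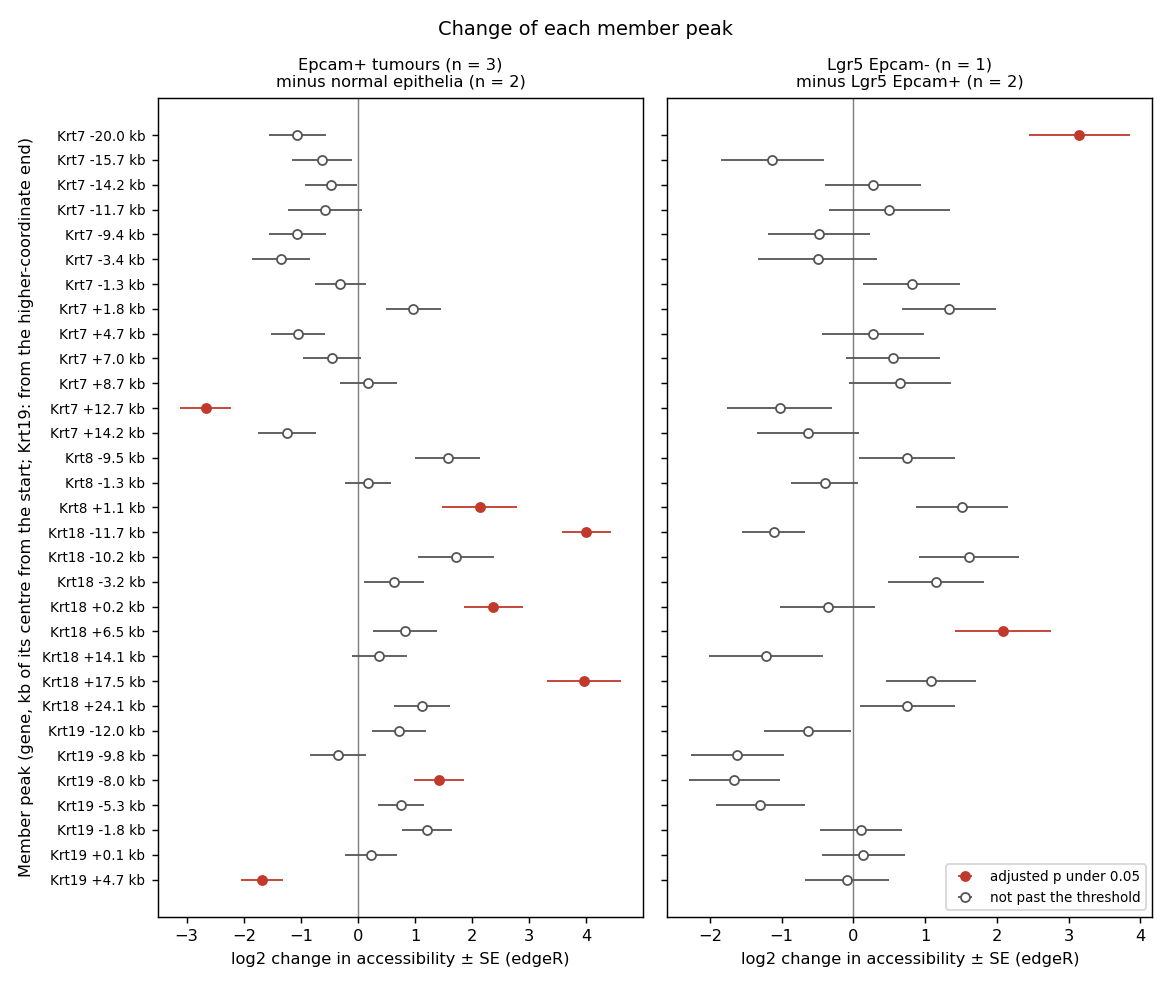
Log2 change of each of the 31 peaks, with the standard error from edgeR as bars. The left panel sets the 3 Epcam+ tumour samples against the 2 normal samples and the right panel sets Lgr5 Epcam- against the 2 Lgr5 Epcam+ samples; filled points passed an adjusted p of 0.05. On the left all 11 Krt8 and Krt18 points lie right of 0 and 11 of 13 Krt7 points lie left of it, and on the right 2 points passed.

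Krt7 is a type II keratin of ducts and glandular epithelia, and its peak that passed was lower in tumours. The peak of highest mean CPM over the 6 samples, chr15:101424478-101425655, lies inside the gene 12.7 kb from the start, and it led in HF and IFE but in none of the 4 tumour samples. This site had 10.3 CPM in HF, 17.1 in IFE, 1.65 in K14 Epcam+, 2.22 with 2.57 in the Lgr5 Epcam+ pair, and 1.17 in Lgr5 Epcam-. Both normal samples were high and all 4 tumour samples were low. It fell by 2.67 on the log2 scale in Epcam+ tumours (SE 0.45, n = 3 and 2, edgeR adjusted p = 0.00194), and passed in each of 13 alternatives. Of the other 12 Krt7 peaks none passed, with log2 changes from -1.35 to 0.97. The median over the 13 peaks was -0.63, with 11 below 0. Summed over 13 peaks (15.28 kb), Krt7 had 44.8 CPM in HF, 63.9 in IFE, 27.7 in K14 Epcam+, 27.4 with 28.7 in the Lgr5 Epcam+ pair, and 35.9 in Lgr5 Epcam-. All tumour samples lay below both normal samples, and in the gene fit Krt7 fell by 0.99 in log2 units in Epcam+ tumours (SE 0.20, n = 3 and 2, edgeR adjusted p = 0.0083). The same fit gave 0.45 ± 0.37 for Krt8 (adjusted p = 0.4, edgeR) and -0.18 ± 0.31 for Krt19 (adjusted p = 0.719, edgeR), neither past the threshold. Of the peaks assigned to Krt80 on the low-coordinate side, the nearest to the Krt7 peaks had 4.05 CPM in HF, 6.04 in IFE, 1.24 to 2.18 in the Epcam+ tumours and 1.17 in Lgr5 Epcam-. The next one had 3.72 CPM in HF, 10.9 in IFE, 21.8 to 32.3 in the Epcam+ tumours and 8.21 in Lgr5 Epcam-, so the neighbours differed in direction.

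**Figure D3:**
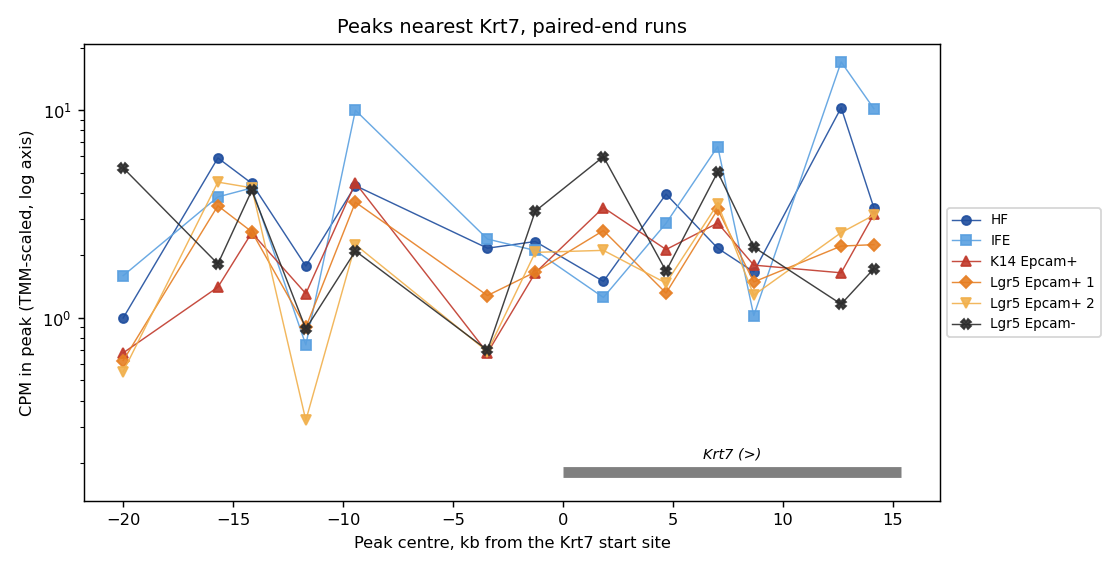
Accessibility of the 13 Krt7 peaks. The horizontal axis is the distance of each peak centre from the Krt7 start site in kb, the vertical axis is CPM on a log scale, each line joins 1 sample, and the grey bar is the gene. At 12.7 kb the normal samples stand at 10.3 and 17.1 CPM and the 4 tumour samples at 1.17 to 2.57 CPM, and at -20.0 kb Lgr5 Epcam- stands alone at 5.27 CPM.

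Krt19 encodes the smallest keratin, a type I chain of ducts and of the follicle's stem cell region. The peaks that passed moved in both directions. Near the far end of the gene, chr11:100140562-100141941 (4.7 kb into it) had 10.01 CPM in HF, 10.25 in IFE, 3.31 in K14 Epcam+, 3.46 with 2.68 in the Lgr5 Epcam+ pair, and 2.88 in Lgr5 Epcam-. The normal samples were alike, and all 4 tumour samples were lower. It fell by 1.68 on the log2 scale in Epcam+ tumours (SE 0.37, n = 3 and 2, edgeR adjusted p = 0.00707), and did so in each of 13 alternatives. On that side the nearest peak assigned to Krt15, known from stem cells of the follicle, had 17.7 CPM in HF, 6.18 in IFE, 1.42 to 2.25 in the Epcam+ tumours and 0.967 in Lgr5 Epcam-. The next had 39.1 CPM in HF, 48.2 in IFE, 8.79 to 12.6 in the Epcam+ tumours and 2.52 in Lgr5 Epcam-. In both, the normal samples were highest.

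Outside Krt19, beyond its higher-coordinate end, chr11:100153224-100154719 (at -8.0 kb) had 2.94 CPM in HF, 1.74 in IFE, 7.65 in K14 Epcam+, 6.35 with 4.83 in the Lgr5 Epcam+ pair, and 1.77 in Lgr5 Epcam-. The Epcam+ tumours were above both normal samples, and Lgr5 Epcam- was not. It rose by 1.42 ± 0.43 on the log2 scale (SE, n = 3 and 2, edgeR adjusted p = 0.0294). This call was lost in 6 of 13 alternatives, among them leaving out IFE (0.207), K14 Epcam+ (0.0779) or Lgr5 Epcam+ sample 1 (0.0809), each an edgeR adjusted p. The Krt19 peak of highest mean CPM over the 6 samples, chr11:100155214-100156313 (at -9.8 kb), was highest in HF, with 13.0 CPM in HF, 4.55 in IFE, 5.88 in K14 Epcam+, 5.34 with 9.51 in the Lgr5 Epcam+ pair, and 2.41 in Lgr5 Epcam-. Normal and Epcam+ values overlapped, and the log2 difference was -0.35 ± 0.49 (SE, edgeR adjusted p = 0.623). The other 4 Krt19 peaks did not pass, at 0.23 to 1.21.

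**Figure D4:**
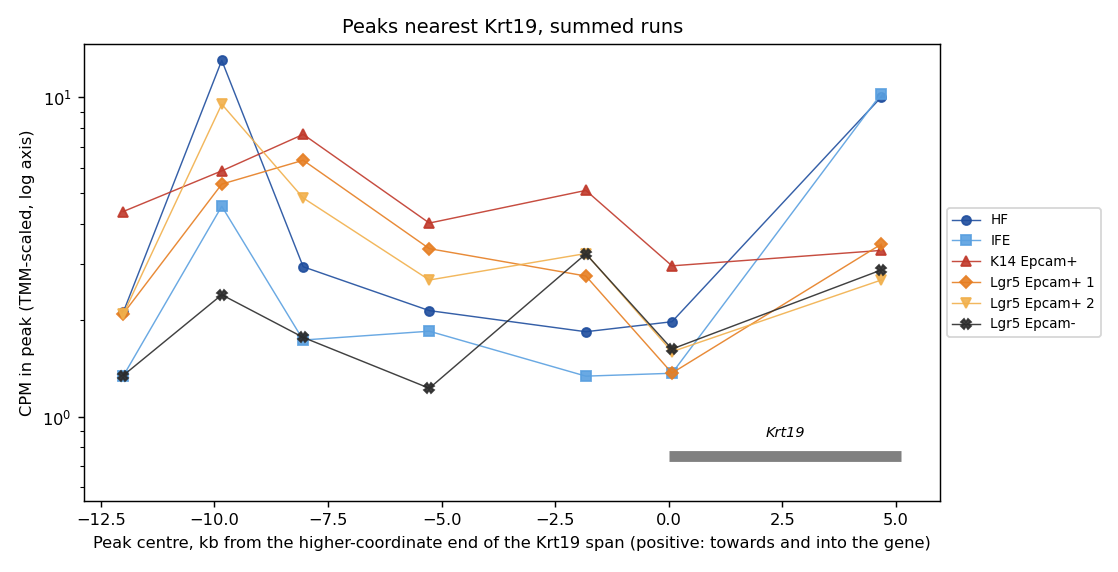
Accessibility of the 7 Krt19 peaks. The horizontal axis is the distance of each peak centre in kb from the higher-coordinate end of the gene, positive into the gene, the vertical axis is CPM on a log scale, each line joins 1 sample, and the grey bar is the gene. The normal samples are highest at 4.7 kb, near 10 CPM, and HF is highest at -9.8 kb with 13.0 CPM.

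Epcam-negative cells of the Lgr5CreER tumours were set against the Epcam-positive cells to ask how these loci stand in cells sorted as negative for an epithelial surface protein. Of the 31 peaks, 2 rose and none fell. Over all peaks 12.1% passed in the paired-end runs and 12.0% in the summed runs, so the members' share was below the background. In the fit of the 5 groups behind this comparison the spread comes from the Lgr5 Epcam+ pair alone, 1 residual degree of freedom, and each lone sample is assumed to vary as that pair does. DESeq2 called none of the 31, with 5 at an unadjusted p under 0.05 against 7 in edgeR.

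The first that rose was a Krt7 site 20.0 kb upstream, chr15:101391901-101392901. It had 0.999 CPM in HF, 1.60 in IFE, 0.679 in K14 Epcam+, 0.623 with 0.551 in the Lgr5 Epcam+ pair, and 5.27 in Lgr5 Epcam-. The values of the Lgr5 Epcam+ pair rest on 18 and 12 counts, and that of Lgr5 Epcam- on 113. Lgr5 Epcam- stood above every other sample, and the log2 change was 3.15 ± 0.71 (SE, n = 1 and 2, edgeR adjusted p = 0.00279; DESeq2 adjusted p = 0.0713). The second was 6.5 kb past the Krt18 start, chr15:102034221-102035221, with 1.22 CPM in HF, 0.684 in IFE, 2.62 in K14 Epcam+, 1.28 with 1.24 in the Lgr5 Epcam+ pair, and 5.41 in Lgr5 Epcam-. It rose by 2.09 ± 0.67 (SE, n = 1 and 2, edgeR adjusted p = 0.0342). That call was lost with DESeq2 (adjusted p = 0.262) and, by edgeR, with loess scaling (0.0733), single-end runs (0.0623) and all 3 Epcam+ tumours as the other side (0.114).

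At the Krt18 sites that were higher in tumours, the value in Epcam-negative cells was above both normal samples. The log2 difference from Lgr5 Epcam+ was -1.11 ± 0.44 at the 11.7 kb upstream peak (SE, edgeR adjusted p = 0.102), -0.36 ± 0.66 at the start site (0.821) and 1.08 ± 0.63 at 17.5 kb (0.313). None passed, which does not show that the values are alike. The site holding most Krt18 counts differed: the 11.7 kb upstream peak held 41.4% to 56.1% of them in the Epcam+ tumours, and in Lgr5 Epcam- the 17.5 kb peak led with 29.7%. For Krt8 the 1.1 kb site had a difference of 1.51 ± 0.64 (adjusted p = 0.122), and for Krt19 the peaks at -8.0 and -9.8 kb had -1.66 ± 0.63 (0.108) and -1.62 ± 0.65 (0.126), all by edgeR with n = 1 and 2. Summed Krt19 signal was 14.5 CPM in Lgr5 Epcam-, the lowest of the 6 samples, against 22.4 to 34.1 CPM in the others. In the gene fit, where 6.27% of genes passed, no member did: the log2 differences were 0.45 ± 0.32 for Krt7, 0.27 ± 0.42 for Krt8, 0.20 ± 0.40 for Krt18 and -0.64 ± 0.37 for Krt19, with edgeR adjusted p from 0.39 to 0.874 (paired-end runs). At an unadjusted p under 0.05, 0 of the 4 passed, and DESeq2 was not run on gene sums.

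Each tumour origin was also compared where the groups allowed. Lgr5 Epcam+ against HF shares HF and both Lgr5 Epcam+ samples with the comparison of tumours and normal epithelia, so its values are given only side by side. In it 3 member peaks rose and 1 fell, where 17.3% of peaks passed in the paired-end and 16.3% in the summed runs. With total-count or loess scaling the split was 2 and 2. The log2 rise was 4.06 ± 0.54 at the Krt18 peak 11.7 kb upstream (SE, n = 2 and 1, edgeR adjusted p = 6.98e-06), 3.58 ± 0.84 at the 17.5 kb peak (0.00448) and 2.27 ± 0.75 at the start site (0.0334), and Krt7 at 12.7 kb fell by 2.10 (SE 0.64, 0.0187). Without Lgr5 Epcam+ sample 1 the 3 Krt18 values were 3.41, 2.29 and 1.5, values without a test since no residual degree of freedom is left, and the start-site call was lost under total-count (0.0669) and loess scaling (0.221). The Krt19 site at 4.7 kb had -1.70 ± 0.56 (edgeR adjusted p = 0.0524).

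Lgr5 Epcam+ against K14 Epcam+ gave no call among the 31 peaks by edgeR, with 1 at an unadjusted p under 0.05, and none by DESeq2 at either level. Over all peaks 0.0181% passed in the paired-end runs and 0.00846% in the summed runs. The largest differences in each direction, named after the values were seen, were 1.5 ± 0.74 at Krt7 (-15.7 kb) and -1.43 ± 0.64 at Krt8 (1.1 kb), with n = 2 and 1, and the smallest edgeR adjusted p was 0.887. Standard errors at the chromosome 15 peaks were 0.42 to 0.83 log2 units, and a p that misses the threshold does not show that the origins are alike. The Krt18 peak 11.7 kb upstream had 0.19 ± 0.42.

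The other comparisons set 1 sample against 1, with exact 95% intervals for counting error only and no test. HF and IFE were near each other at Krt18: the 8 log2 ratios of HF to IFE ran from 0.00 to 0.84, and that of the 11.7 kb upstream peak was 0.00 (-0.67 to 0.66). The normal samples parted at the Krt19 peak at -9.8 kb, where HF was higher by 1.52 (1.26 to 1.79). Other sites were picked for size after the values were seen. At the Krt7 sites 7.0 and 14.2 kb into the gene the ratios were -1.62 (-2.19 to -1.09) and -1.58 (-2.03 to -1.16). At the Krt8 site 1.1 kb inside the gene the ratio was 1.62 (0.66 to 2.70), from 38 counts in HF and 12 in IFE. K14 Epcam+ over IFE gave 3.87 (3.41 to 4.37) at the 11.7 kb upstream peak of Krt18, 4.52 (3.66 to 5.54) at its 17.5 kb peak and -3.37 (-3.93 to -2.86) at the Krt7 12.7 kb peak. Lgr5 Epcam- over HF gave 2.95 (2.48 to 3.45), 4.67 (3.96 to 5.49) and -3.14 (-3.80 to -2.53) at the same sites. All 3 tumour groups thus had Krt18 ratios above 0 and a Krt7 ratio below 0 at these sites, with some of the samples shared between comparisons.

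**Figure D5:**
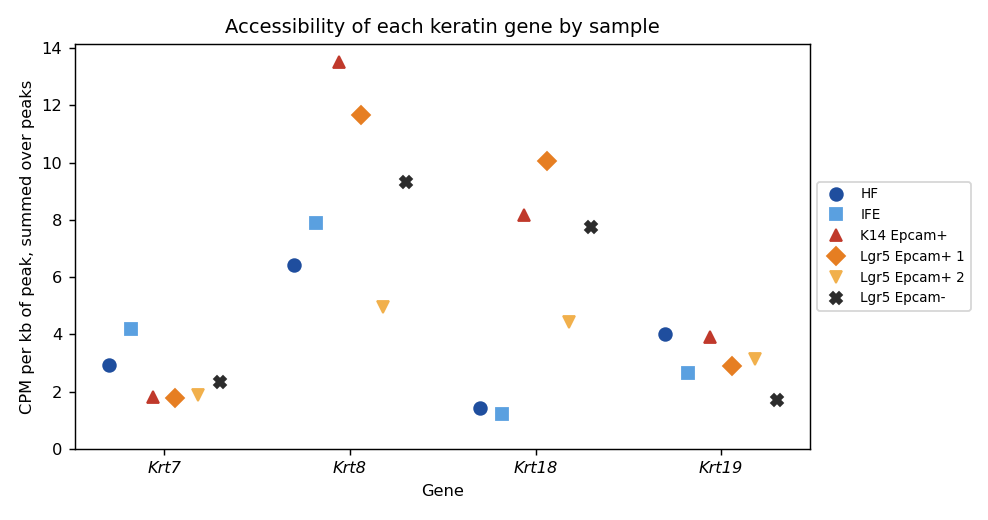
Accessibility of each keratin gene by sample, as CPM summed over its peaks and divided by the kb of peak, on a linear axis from 0, 1 point per sample. Krt18 is lowest in HF and IFE (1.43 and 1.22 CPM per kb) and 4.45 to 10.05 in the 4 tumour samples, while Krt7 is highest in the 2 normal samples.

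Per kb of peak, the level of Krt8 was 4.95 to 13.5 CPM per kb, of Krt18 1.22 to 10.05, of Krt7 1.79 to 4.18 and of Krt19 1.70 to 4.01. In both normal samples the order was Krt8 first and Krt18 last. The order from low to high for Krt18 was IFE, HF, Lgr5 Epcam+ 2, Lgr5 Epcam-, K14 Epcam+ and Lgr5 Epcam+ 1. The gap between the Lgr5 Epcam+ samples (10.05 and 4.45 CPM per kb) takes in both other tumour samples, so the tumour groups cannot be ordered beyond that spread. For Krt8 the Lgr5 Epcam+ pair (11.7 and 4.95) takes in every sample but K14 Epcam+. For Krt7 the pair lay close (1.79 and 1.88) and below both normal samples (2.94 and 4.18). Krt19 ran from 1.70 in Lgr5 Epcam- through 2.64 in IFE, the Lgr5 Epcam+ pair at 2.91 and 3.13, and 3.92 in K14 Epcam+ to 4.01 in HF, and without replicates the neighbours in this order cannot be set apart. Among 9058 genes of above-median level, those most like Krt18 over the 6 samples in log2 CPM were Rgs22 (Pearson r = 0.998), Glis1 (0.9931) and Gpr153 (0.993). Most like Krt7 were Apcdd1 (0.9982), Limd1 (0.996) and Mcf2l (0.9954). Krt8 had Map3k7 (0.9813), Gfod1 (0.9611) and Kcnj6 (0.9562), and Krt19 had Lyzl4 (0.9711), Spock1 (0.9488) and Clybl (0.9401), all described over 6 points that share their libraries.

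Other epithelial genes were taken from 3 lists, using counts summed per gene. The lists are not confined to simple epithelium, as with Krt13 and Krt4 below. Each value below is a log2 change ± SE from edgeR, with the same samples per side as above. Of 12 other keratins and surface genes, 5 rose and 1 fell in Epcam+ tumours, with a median log2 change of 0.70 beside 0.02 over all genes, of which 23.3% passed in either direction. Those with the largest rise were the tight junction genes Cldn3 (2.13 ± 0.36) and Cldn4 (1.87 ± 0.35), then Krt13 (1.42 ± 0.29) and Epcam (1.38 ± 0.21). Krt4, like Krt13 a keratin of stratified mucosa, fell by 1.06 (SE 0.31). Krt20, the keratin of Merkel cells and gut, had -1.01 ± 0.38 and did not pass (edgeR adjusted p = 0.0769). In Lgr5 Epcam-, where 6.27% of all genes passed, 3 of the 12 fell against Lgr5 Epcam+ and none rose. Among the 3 were Epcam (-2.23 ± 0.37) and Cdh1, which encodes E-cadherin (-1.57 ± 0.35). Epcam, the protein the tumour cells were sorted on, is counted in both comparisons, and its values are not independent of the sort. The median of the 12 was -1.04 beside -0.01 over all genes, and the value for Krt18 was 0.20 ± 0.40; the difference between these genes was not tested.

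Of 13 partners of keratin filaments, such as plakins and chaperones, 2 rose in Epcam+ tumours and none fell (median -0.04), a share below the 23.3% of all genes. They were Dnajb6, a chaperone that binds keratin 18, by 0.94 ± 0.22, and Pkp2, a desmosomal plakophilin, by 0.85 ± 0.26. In Lgr5 Epcam- 3 fell and none rose (median -0.82): Dsp, which ties keratins to desmosomes (-1.94 ± 0.36), and the plakophilins Pkp3 (-1.82 ± 0.37) and Pkp1 (-1.63 ± 0.35). Of 16 transcription factors of simple and surface epithelium, 2 rose, among them Cdx2 by 2.30 ± 0.26, and 2 fell, Gata6 (-1.52 ± 0.21) and Gata3 (-1.26 ± 0.26), with a median of 0.06. Cdx2 is known as the regulator of gut identity, and its 4 peaks summed to 9.07 CPM in HF, 12.4 in IFE, 56.3 in K14 Epcam+, 59.5 with 43.8 in the Lgr5 Epcam+ pair, and 27.5 in Lgr5 Epcam-. All tumour samples were above both normal samples there. In Lgr5 Epcam- 4 of the 16 fell and none rose, Tfap2c (-2.18 ± 0.42), Ovol1 (-1.97 ± 0.51), Grhl2 (-1.71 ± 0.37) and Ehf (-1.59 ± 0.36), with a median of -0.57. Over the 3 lists, 9 rose and 3 fell of 41 in tumours, or 8 and 6 under total-count scaling, and 10 fell in Lgr5 Epcam-. Over all genes 23.3% and 6.27% passed in these comparisons, so the list count in tumours lay near the background share. Members of these lists were chosen with results of these data known, so the counts are no independent evidence of direction.

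Markers of other cells that could hold simple keratins or enter the sort were read the same way. Over all genes 23.3% passed in Epcam+ tumours against normal epithelia and 6.27% in Lgr5 Epcam- against Lgr5 Epcam+. With 6 or 7 genes per list, the counts below are descriptions and were not tested against these shares. Of 7 Merkel cell genes, none rose and Syp fell by 0.77 in Epcam+ tumours, and none passed in Lgr5 Epcam-. Summed Merkel signal was 157.1 to 255.4 CPM in the Epcam+ tumours, beside 168.6 and 249.5 CPM in the normal samples. It was 343.6 CPM, the highest of the 6, in Lgr5 Epcam-, of which Piezo2 alone held 253.8 CPM. Piezo2 had 133.6 CPM in HF, 64.0 in IFE and 85.9 to 179.4 in the Epcam+ tumours. Krt20 was at 2.70 to 4.04 CPM in the Epcam+ tumours, 7.27 in HF, 7.10 in IFE and 3.43 in Lgr5 Epcam-. Atoh1 was at 4.06 to 7.71 CPM in the Epcam+ tumours, 8.24 in HF, 9.61 in IFE and 11.8 in Lgr5 Epcam-. Of 6 sebaceous genes Pparg rose by 1.77 ± 0.32 in tumours, and their sum was 212.7 and 267.2 CPM in normal against 273.8 to 329.3 CPM in Epcam+ samples. Of 6 immune genes with a peak (of 7), Ptprc, which encodes CD45, rose by 1.58 ± 0.23 and Cd68 by 1.32 ± 0.25, and the sum went from 96.8 and 102.2 CPM to between 180.7 and 213.7 CPM. Of 6 endothelial genes, 2 rose (Tie1 and Cdh5) and Tek fell, with sums of 266.3 and 278.0 against 317.1 to 406.9 CPM. Of 7 fibroblast genes Col6a3 rose by 1.40 ± 0.28 and Dpt fell by 1.16 (SE 0.32), with sums of 259.7 and 301.3 against 325.5 to 391.0 CPM. In Lgr5 Epcam- the fibroblast genes Pdgfrb, Dcn and Col1a1 rose by 1.98, 1.49 and 1.43 against Lgr5 Epcam+, and the sum was 720.7 CPM. Of the 6 endothelial genes there, 2 rose (Emcn by 1.31 and Tek by 1.27) and none fell, with Pecam1 at -1.07 and Tie1 at -1.01 not past the threshold, and the sum, 296.1 CPM, was below that of each Epcam+ tumour sample. Of the 6 keratinocyte genes none rose, and 3 fell, Krt5, Krt14 and Itga6 (-2.60, -2.30 and -1.44). No marker gene with a peak was at 0. The part of these cells in the Krt18, Krt7 and Krt19 results was not tested.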

How the data were processed

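ATAC-seq counts per peak were analysed for 6 samples in 5 groups, each with 1 single-end and 1 paired-end run. The tables the authors deposited hold raw counts for 1 list of 177240 peaks. Per the submitters' processing notes, Bowtie2, HOMER, bedtools and HTSeq were used on mm10; the sources used here do not give versions, duplicate removal, any Tn5 shift or the peak calling, and whether duplicates inflate the counts could not be checked. One further allele of the tumour genotype and some genes counted in the lists are not reported here by name.

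Each peak was given to its nearest protein-coding gene if 50 kb or less away (RefSeq, GRCm38.p6). Counts were tested on the whole table with edgeR 4.0.16 in R 4.3.3 after filterByExpr (minimum count 10) and TMM scaling, using a robust quasi-likelihood F test and Benjamini-Hochberg adjustment with a threshold of 0.05. Normal and tumour samples were compared in 3 classes (3 residual degrees of freedom), other comparisons in the 5 groups (1 residual degree of freedom). The standard error is the absolute log2 change over the root of F. CPM of member peaks and their neighbours is on TMM-scaled totals of counts in all peaks. For Epcam, Trp53, list genes and marker genes it is on TMM-scaled totals of the peaks given to a gene. These sets of CPM are not on the same scale: Krt18 in HF is 14.1 CPM on the first and 17.6 on the second. Runs were summed for Krt19, and gene lists used paired-end runs. Scripts were tested on simulated data. DESeq2 1.42.0, other scalings, runs, windows, designs and left-out samples were alternatives.

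Per gene, the text gives the peak of highest mean CPM and up to 5 that passed, and per list and comparison up to 4 genes that passed and up to 2 that did not. The members and lists were chosen with earlier results of these data known. Total counts in peaks were 15896612 to 32703016 per run, and counting intervals cover counting error only.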

Additional observations from a re-analysis of the deposited data

How the results depend on the processing

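No paired analysis was made, since only Lgr5 Epcam+ has more than 1 sample. The labels do not say whether the Lgr5 Epcam- and Lgr5 Epcam+ cells came from the same tumours. In Epcam+ tumours against normal epithelia, 7 of 31 peaks passed and 12 did with summed runs for all members (6 higher, 6 lower), where the low stretch of the K14 Epcam+ single-end run enters; without each sample in turn the count was 5 to 9. In Lgr5 Epcam- against Lgr5 Epcam+, 2 passed, but 0 with DESeq2, 1 with loess scaling, 1 within 10 kb and 1 in 3 classes. In Lgr5 Epcam+ against HF, 4 passed, and 2 within 10 kb; the narrower window drops peaks, and for the other settings the cause was not tested. The count for Lgr5 Epcam+ against K14 Epcam+ was 0 in all alternatives run. Of 147 values for 13 called peak results under these alternatives, 126 kept their side of the threshold or moved within the spread, 18 lost the call, 3 moved further (each without Lgr5 Epcam+ sample 1) and no direction turned. Total-count scaling shifted the median of all peaks in the paired-end runs to -0.15 in Epcam+ tumours against normal epithelia, 0.14 in Lgr5 Epcam- against Lgr5 Epcam+ and -0.27 in Lgr5 Epcam+ against HF. Single samples in every group but Lgr5 Epcam+ limit the precision. So do low counts at the Krt18 sites in normal samples and at the Krt7 site 20.0 kb upstream in all samples but Lgr5 Epcam-.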
